A study of Physcomitrium patens with 6 samples.

Results

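The transcripts described here were abundant in untreated moss protonema and stood at 0.5 of their level or less after 60 minutes of abscisic acid (ABA). Members were chosen on the read counts themselves. A gene had to average at least 100 CPM (a gene's reads per 1000000 gene reads of its library, scaled between libraries by the TMM method) over the 2 libraries at 0 minutes, to have a 60/0 ratio of mean CPM of at most 0.5, and to lie in both 60 minute libraries below both 0 minute libraries. Of 32926 gene IDs, 79 met these conditions, which is 5.75% of the 1373 genes with at least 100 CPM at 0 minutes. All 79 passed the filter on low counts. None was lost altogether: the median 60/0 ratio was 0.335, 7 members kept 0.2 of their level or less, and 2 kept 0.1 or less. Libraries at 0 and 60 minutes do not overlap for any member because the rule requires it (40.5% of all genes tested were separated in that direction). The falls at 60 minutes are therefore described here, and nothing is read from a test of them.

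The study sequenced messenger RNA from protonema of Physcomitrium patens, the filamentous juvenile tissue of this moss, in 6 libraries: 2 biological replicates without ABA (0 minutes), 2 after 30 minutes and 2 after 60 minutes of ABA. Tissue was broken up by sonication, grown in shaken liquid PpNH4 medium and given ABA, at a final concentration that the series design states as 10 µM and the treatment protocol as 10 mM. Control cultures received the same volume of methanol; the labels do not say how long the 0 minute cultures stood after it, so ABA and time after an addition cannot be told apart. The labels name no strain, mutant or transgene, and give no batch or date.

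ABA is the plant hormone of water deficit. In mosses as in flowering plants it is sensed by soluble receptors that inhibit group A type 2C protein phosphatases, which frees SnRK2 kinases to act on transcription factors, and in moss protonema it prepares the filaments for drying. Protonema holds chloroplast-rich chloronemal cells and faster-growing caulonemal cells. The level of a messenger RNA in bulk tissue depends on how fast it is made and how fast it is broken down; fewer cells of a type and less RNA per cell cannot be told apart in these libraries.

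The count tables do not pair gene IDs with names, and none of the 79 IDs, nor any of the other IDs, matched any of 27567 genes in RefSeq's annotation of assembly ASM5946719v1. Members are therefore given by their rank in reads at 0 minutes, from 1 (most reads) to 79, with 2 of them named by ID, and no function, marker list or sequence can be given for them; the labelled tissue could likewise not be checked against marker genes. Without gene lengths, ranks order reads and not transcripts.

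Gene counts per library ranged from 12450250 to 17822775. A member was read between 1923 and 47394 times in a library at 0 minutes and between 99 and 13367 times at 60 minutes. The lowest of these counts, 99 reads, has an exact 95% counting interval from 80.5 to 121, so counting error is small beside the falls described here; reads are not independent molecules, and the interval covers counting error only. Replicates differed beyond sampling noise, most at 60 minutes (chi-square over degrees of freedom: 7.26 for the 0 minute pair, 3.47 for the 30 minute pair and 16.8 for the 60 minute pair). The labels call the replicates biological but do not say that each was a separate culture, and p-values measure the spread between these libraries.

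**Figure D1:**
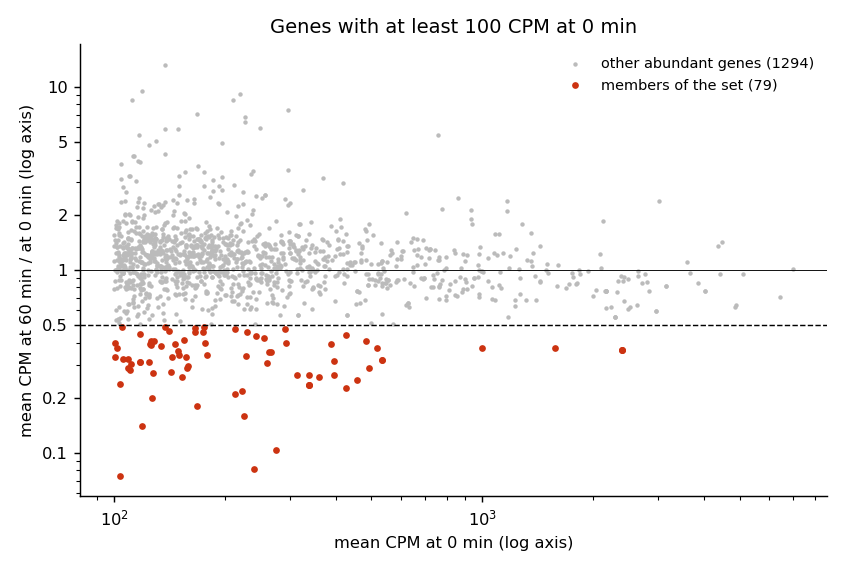
Ratio of mean CPM at 60 to that at 0 minutes (log axis) against mean CPM at 0 minutes (log axis) for the 1373 genes with at least 100 CPM at 0 minutes; each point is a gene. The 79 members, in red, lie under the dashed line at 0.5 by the rule that chose them; 3 of them, with the highest levels, fall on nearly the same point at the right.

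The set is narrow at its edges. The members closest to the ratio limit stood at 0.487, 0.484 and 0.484 of their 0 minute level, and the first genes outside it at 0.503, 0.505 and 0.505. On the level limit, the lowest members averaged 100.3, 100.5 and 101.6 CPM at 0 minutes, and the first genes left out 99.9, 97.95 and 96.97 CPM. A further 37 abundant genes with separated libraries lay between ratios of 0.5 and 0.6. The condition on overlap removed no gene.

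The members with the most reads are not independent of each other. Pp3c26_6990, at rank 1, gave 2263 and 2533 CPM at 0 minutes, 974 and 1083 CPM at 30 minutes and 949 and 792 CPM at 60 minutes. Ranks 2 and 3 carried nearly the same counts in every library: 47394, 47259 and 47258 reads for ranks 1 to 3 in replicate 1 at 0 minutes, and 11032, 11012 and 11012 reads in replicate 2 at 60 minutes. In no library did counts within this group differ by more than 0.353%. Ranks 6 and 7 formed a like pair, with 9696 and 9680 reads in replicate 1 at 0 minutes and 2189 reads each in replicate 2 at 60 minutes. Ranks 18, 19 and 20 read 6835, 6833 and 6836 times in replicate 1 at 0 minutes and 1089, 1089 and 1084 times in replicate 2 at 60 minutes. Ranks 67 and 68 were equal in 5 libraries and differed by 1 read, 546 against 545, in replicate 1 at 60 minutes.

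With a tolerance of 1% in every library, 10 members fell into these 4 groups of near-identical counts, 12.7% of the set against 5.39% of all abundant genes (74 genes in 34 groups). The 79 IDs thus hold 73 distinct profiles. All 47 near-identical pairs among abundant genes shared the first part of the ID. The tables list 0 ambiguous and 0 not uniquely aligned reads; whether the same reads were counted for each ID of a group, or the IDs are copies whose reads could not be assigned, was not tested. These 10 members are reported as uncertain, and the main counts of calls are given both for all 79 IDs and for the 73 profiles.

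Ranks 4 and 5 belong to the same stretch of IDs as ranks 1 to 3. From the first to the last of these 5 members, the numbering holds 9 IDs, and the other 4 never exceeded 1.52 CPM. Rank 4 held between 0.643 and 0.687 of the reads of rank 1 in every library and rank 5 between 0.4 and 0.456, so these 5 IDs kept their proportions through the time course to within that range. The ID just before the stretch, which is not a member, gave 1456 and 1522 CPM at 0 minutes, 1400 and 1291 CPM after 30 minutes, and 1428 and 1526 CPM after 60 minutes; its libraries at 60 and 0 minutes overlap.

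Together the 79 IDs took 2.97% and 3.05% of gene counts in the 0 minute libraries, 1.42% and 1.48% after 30 minutes and 0.814% and 0.674% at 60 minutes. The 30 minute libraries, which the rule did not use, lie between the other times without overlap. As means, the share went from 3.01% ± 0.055 to 1.45% ± 0.037 and 0.744% ± 0.099 (SD, n = 2). Counting each near-identical group once gave 2.31% ± 0.017, 1.16% ± 0.018 and 0.568% ± 0.066 (SD, n = 2). Ranks 1 to 5 alone took 1.12% ± 0.055 of gene counts before and 0.299% ± 0.059 after 60 minutes of ABA (SD, n = 2). None of the shares above is scaled by TMM. Unscaled, the 1294 other abundant genes also fell, from 58.9% and 60.1% at 0 minutes to 47% and 48.3% at 60 minutes. At 30 minutes they already stood at 50% and 50.4%. With TMM factors the members went from 2.53% and 2.71% at 0 minutes to 0.93% and 0.85% at 60 minutes. At 30 minutes they took 1.37% and 1.41%. The other abundant genes, with the same factors, went from 50.1% and 53.4% to 53.8% and 60.9%, with 48% and 48.2% at 30 minutes. Part of the unscaled fall thus goes with the scaling. An exact permutation test of 2 libraries against 2 cannot go below p = 0.333, and none was run on these shares.

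**Figure D2:**
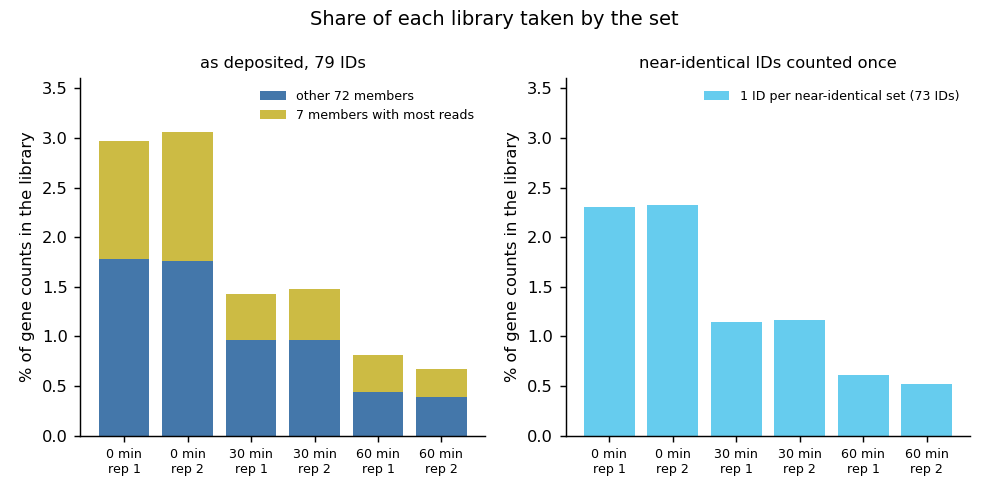
Percent of each library's gene counts taken by the members, 1 bar per library; the left panel stacks the 7 members with the most reads on the other 72, and the right panel counts each near-identical group once. Without TMM scaling, the share falls from about 3% to under 1% on the left and from 2.3% to 0.614% and 0.521% on the right.

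The 30 minute libraries give the timing of the fall. At 30 minutes 71 of the 79 members (65 of 73 distinct profiles) were called lower than at 0 minutes and 0 were called higher, by edgeR's quasi-likelihood F test at a Benjamini-Hochberg adjusted p below 0.05 over 18949 genes; 16.8% of all genes tested were called lower in this comparison and 19.6% higher. At 60 minutes all 79 were called lower than at 0 minutes, with a largest adjusted p of 0.00381 in the same test, where 29.5% of genes tested were called lower; the rule used this contrast, and nothing is read from that count. From 30 to 60 minutes 64 members (61 of 73 profiles) were called lower again and 1 higher, against 18.5% and 17.4% of all genes tested. The comparison at 30 minutes shares the 0 minute libraries with the rule and the later one shares the 60 minute libraries, so the choice of members favours falls in both. The log2 fold change at 30 minutes was below 0 in all 79 members, with a highest value of -0.15. Under other scalings 0 members were called higher at 30 minutes. Of the 18949 genes tested, 2783 were called higher with total counts, 2553 with upper-quartile factors and 3083 with DESeq2. Total counts gave 77 called lower, beside 22.9% of all genes tested. Upper-quartile factors gave 79, beside 35.2%, and DESeq2 with its own size factors 69, beside 11.7%. The share of all genes called lower thus moved with the scaling too.

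The median log2 fold change of the members was -0.64 from 0 to 30 minutes, -0.87 from 30 to 60 minutes and -1.58 over the hour, beside -0.02, 0.01 and -0.04 for all genes tested and -0.05, 0.22 and 0.17 for the 1294 other abundant genes. Of those other abundant genes, 57 (4.4%) were called lower from 30 to 60 minutes and 369 (28.5%) higher. Scaling sets part of these values. With total counts alone the median of all genes tested moved to -0.16 at 30 and -0.5 at 60 minutes, and the members' median 60/0 ratio from 0.335 to 0.243; with upper-quartile factors the values were -0.26, -0.39 and 0.263. Both libraries at 60 minutes lay below both at 0 minutes for all 79 members under each of the 4 scalings.

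In 72 members (66 profiles) the libraries of the 3 times were fully separated in the order 0, 30, 60 minutes, against 16.1% of all genes tested and 11.4% of abundant genes (34.3% of genes tested had both 60 minute libraries below both at 30 minutes). In 4 members the 30 and 60 minute libraries overlapped below those at 0 minutes. In 2 members both 60 minute libraries lay above both at 30 minutes while staying below 0 minutes. Of all genes tested, 33.7% had both 60 minute libraries above both at 30 minutes, whatever their level at 0 minutes. For neither placing as a whole was the share of all genes taken. Rank 40 was the single member whose 30 minute libraries overlapped those at 0 minutes. It gave 193 and 158 CPM at 0 minutes, 155 and 160 CPM at 30 minutes and 91.9 and 77.8 CPM at 60 minutes.

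**Figure D3:**
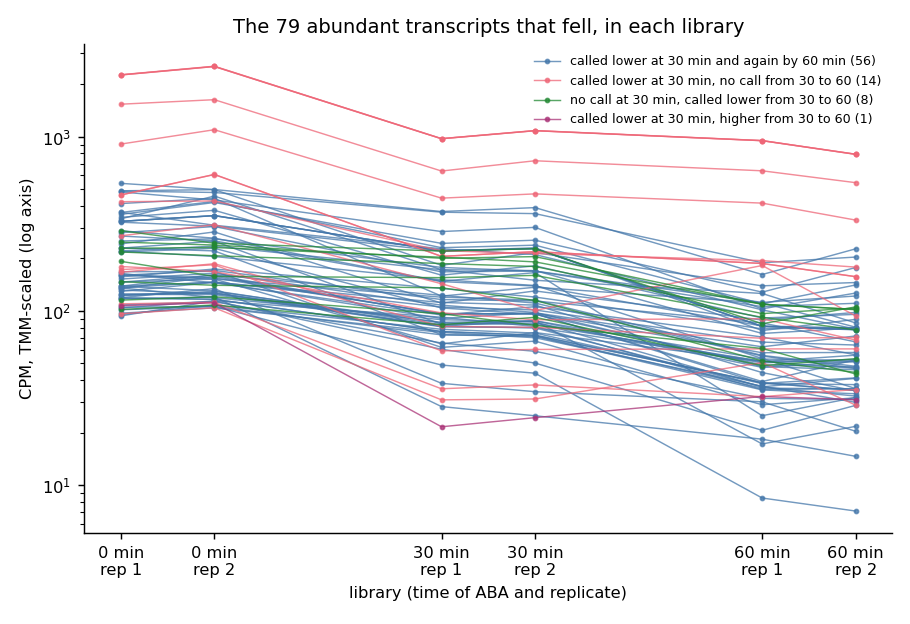
CPM (log axis) of each of the 79 members in each of the 6 libraries; a line joins the libraries of 1 member and is coloured by the calls at 30 against 0 and at 60 against 30 minutes. The 14 lines called lower at 30 minutes with no later call include the 7 with the most reads, and the single member called higher after 30 minutes is the lowest at that time.

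The calls divide the members by when they fell. Of all genes tested, 16.8% were called lower at 30 minutes and 18.5% from 30 to 60 minutes. The share of all genes in each joint class below was not taken, so the class sizes are a description of the members only. Called lower at 30 minutes and lower again by 60 minutes were 56 members (53 profiles), with medians of 158 CPM at 0 minutes, 102 CPM at 30 minutes and 51.7 CPM at 60 minutes. Called lower at 30 minutes without a later call were 14 members (11 profiles), with medians of 480, 212 and 172 CPM. No call at 30 minutes and a fall afterwards was found for 8 members, with medians of 194, 170 and 89.9 CPM. Medians here order groups of members and are not levels per length. Missing a call does not show that a level held: all 8 of the last group had lower means at 30 than at 0 minutes, with 30/0 ratios from 0.758 to 0.899.

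These sizes depended on single libraries and on the scaling. The share of all genes called lower at 30 minutes moved too, from 16.8% to 22.9% with total counts and 35.2% with upper-quartile factors. Shares of all genes in the joint classes were not taken for these fits either. The members that fell in both intervals numbered 34 without replicate 1 and 32 without replicate 2 at 30 minutes, and 74 with total counts alone. Those with no later call numbered 8 without replicate 1 at 60 minutes and 3 with total counts alone. The members with no call at 30 minutes numbered 17 and 23 without replicate 1 or 2 at 0 minutes, 25 without either library at 30 minutes, 4 without either library at 60 minutes, 2 with total counts, 0 with upper-quartile factors and 4 when just the 4 libraries compared were fitted.

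Among members called lower at 30 minutes with no later call, ranks 1 to 7 stood together. For Pp3c26_6990 the log2 fold change was -1.22 (SE 0.15) at 30 minutes, with an adjusted p of 6.07e-05 in edgeR's quasi-likelihood test. From 30 to 60 minutes it was -0.24, with an adjusted p of 0.232; the call appeared without replicate 1 at 60 minutes (-0.37, adjusted p = 0.0341) and with total counts alone (-0.56, adjusted p = 0.0108). On the log2 scale 83.6% of its fall over the hour was present at 30 minutes. Ranks 6 and 7, whose IDs begin with Pp3s775 and not with Pp3c26, followed the same course: 463 and 607 CPM at 0 minutes, 205 and 219 CPM at 30 minutes and 187 and 157 CPM at 60 minutes for rank 6. Rank 6 held 0.197 to 0.24 of the reads of rank 1 in every library. The 7 members include 2 near-identical groups, so they amount to 4 profiles.

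Other members of this class had fewer reads. Rank 13 gave 423 and 427 CPM at 0 minutes, 221 and 214 CPM at 30 minutes and 194 and 178 CPM at 60 minutes. Rank 39 went from 167 and 187 CPM to 81.5 and 80.5 CPM and then 69.7 and 70.4 CPM. Rank 69 went from 110 and 112 CPM to 35.8 and 37.6 CPM, then 32.2 and 35.4 CPM. In each of these 3 members both 60 minute libraries still lay below both at 30 minutes, but the difference was not called.

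A few members had their lowest level at 30 minutes. Rank 71 gave 107 and 111 CPM at 0 minutes, 21.6 and 24.4 CPM at 30 minutes and 32.3 and 31.0 CPM at 60 minutes, without overlap between any 2 times. Its log2 fold change was -2.25 (SE 0.11) at 30 minutes and 0.46 from 30 to 60 minutes, the latter with an adjusted p of 0.00997 in edgeR's quasi-likelihood test. It was the single member called higher after 30 minutes; that count was 0 with total counts alone or without replicate 1 at 30 minutes, and 3 without replicate 2 at 60 minutes. Rank 38 went from 173 and 184 CPM to 59.0 and 60.1 CPM and stood at 60.6 CPM in each 60 minute library. These 2 are shown because they reached their 60 minute level, or less, within the first 30 minutes.

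Disagreement between replicates at 60 minutes touches 2 of the early members. Rank 24 gave 182 and 93.6 CPM at 60 minutes, after 143 and 101 CPM at 30 minutes and 270 and 312 CPM at 0 minutes. Rank 79 gave 50.5 and 28.8 CPM at 60 minutes, after 30.9 and 31.2 CPM at 30 minutes and 96.2 and 104 CPM at 0 minutes. In both, replicate 1 at 60 minutes was above both 30 minute libraries and replicate 2 below them. They were the 2 members whose replicates differed by more than 1.5-fold at any time; of the other abundant genes 1.85% did so at 60 minutes.

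Members called lower in both intervals make up most of the set in the fit of all 6 libraries. Rank 9 gave 489 and 496 CPM at 0 minutes, 183 and 216 CPM at 30 minutes and 139 and 145 CPM at 60 minutes. Rank 12 went from 413 and 442 CPM to 122 and 137 CPM, then 111 and 80.7 CPM. Rank 17 went from 344 and 378 CPM to 160 and 181 CPM, then 91.1 and 95.5 CPM. In ranks 9 and 12 most of the fall came first, whereas rank 17 lost about as much on the log2 scale in each 30 minutes (-1.08 and -0.87).

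Many of them lost more in the second 30 minutes on the log2 scale. Rank 11 gave 482 and 433 CPM at 0 minutes, 285 and 302 CPM at 30 minutes and 103 and 127 CPM at 60 minutes. Ranks 18 to 20, a near-identical group, stood at 326 and 352 CPM, then 221 and 228 CPM, then 81.5 and 78.2 CPM (values of rank 18). Rank 22 went from 323 and 306 CPM to 220 and 230 CPM, then 77.2 and 89.4 CPM. In these members the log2 fold change was between -0.48 and -0.64 at 30 minutes and between -1.36 and -1.50 afterwards.

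Pp3c17_19170, at rank 76, had the lowest 60/0 ratio of the set, 0.075. It gave 102 and 106 CPM at 0 minutes, 48.9 and 43.9 CPM at 30 minutes and 8.45 and 7.11 CPM at 60 minutes. Its means were 104 ± 3.25, 46.4 ± 3.54 and 7.78 ± 0.944 CPM (SD, n = 2). The log2 fold change was -1.16 (SE 0.11) at 30 minutes, with an adjusted p of 9.27e-06 (edgeR, quasi-likelihood). At 60 minutes it was -3.74 (SE 0.14). That value is the one it was chosen for, so no p-value is given with it. From 30 to 60 minutes it was -2.58, with an adjusted p of 1.57e-06 in the same test. This contrast uses the same 60 minute libraries in which it was chosen as lowest, so the choice favours a fall here.

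Rank 31 ran from 229 and 251 CPM at 0 minutes through 83.9 and 87.5 CPM at 30 minutes to 17.2 and 21.8 CPM at 60 minutes, a ratio of 0.081. Rank 25 ran from 288 and 261 CPM through 148 and 166 CPM to 25.1 and 31.9 CPM, a ratio of 0.104. Next came rank 65, which had reached 28.3 and 25.0 CPM from 117 and 120 CPM by 30 minutes and ended at 18.4 and 14.7 CPM. Ranks 34, 42 and 60 also ended at 0.2 of their 0 minute level or less. On the log2 scale 3 of these 7 members, ranks 76, 31 and 25, fell more after 30 minutes than before it, and the other 4 fell more before it.

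The late members had small differences at 30 minutes. Rank 26 gave 289 and 245 CPM at 0 minutes, 220 and 228 CPM at 30 minutes and 84.4 and 106 CPM at 60 minutes. Rank 53 went from 147 and 140 CPM to 136 and 115 CPM, then 51.7 and 44.4 CPM. Rank 32 went from 229 and 231 CPM to 203 and 191 CPM, then 109 and 102 CPM. In each of these 3 the 30 minute libraries lay below those at 0 minutes without overlap, as they did in 37.8% of all genes tested, but the difference was not called.

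**Figure D4:**
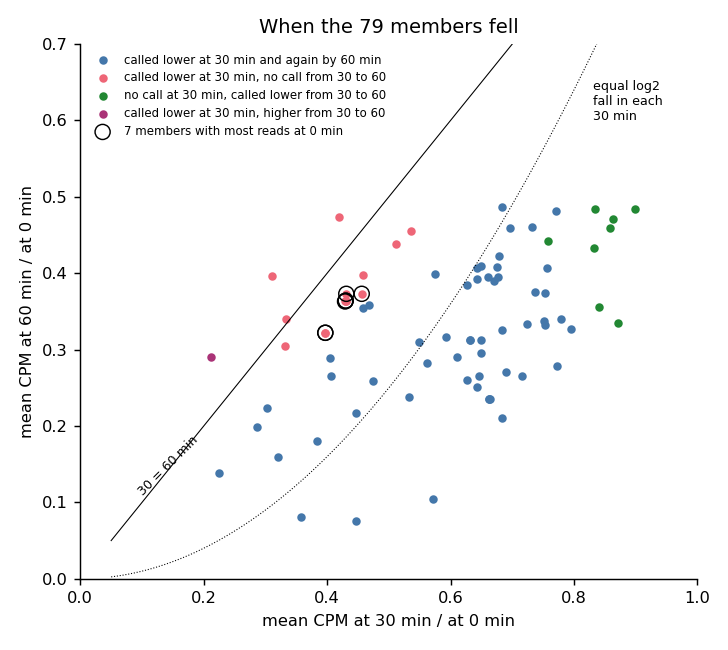
Ratio of mean CPM at 60 to 0 minutes against the ratio at 30 to 0 minutes, 1 point per member, coloured by the calls; the solid line marks equal levels at 30 and 60 minutes and the dotted curve equal log2 falls in each 30 minutes. The 7 circled members with the most reads lie close to the solid line, between 0.397 and 0.456 at 30 minutes, while 50 members lie below the dotted curve.

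As one measure of timing, the share of a member's log2 fall present at 30 minutes had a median of 43.7%, with quartiles of 29.1% and 73.4% and a range from 12.5% to 126%. A value above 100% means a lower level at 30 than at 60 minutes. Each 30 minute library taken alone gave a median of 41.9% or 43.7%. By the means, 29 members (26 profiles) lost more in the first 30 minutes on the log2 scale and 50 (47 profiles) in the second. The order depends on the scale: in CPM, 49 members (45 profiles) lost more in the first 30 minutes and 30 in the second, and the median share of the fall present at 30 minutes was 56.1%. By 30 minutes 26 members already stood at 0.5 of their 0 minute level or less. For the 7 members with the most reads the median was 88.9% in replicate 1 and 78.5% in replicate 2, against 38.8% and 42.6% for the other 72; this contrast was noticed in the data and was not tested.

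The same measure was taken in 1186 less abundant genes, with 10 to 100 CPM at 0 minutes, that met the other conditions of the rule. Their median was 39.2% in replicate 1 and 43.9% in replicate 2 at 30 minutes. The members' 41.9% and 43.7% lie within the range of those 2 medians; the difference in timing was not tested. By level at 0 minutes, the median share from the mean levels was 40.9% for falling genes with 10 to 30 CPM, 42.9% with 30 to 100 CPM and 41.0% with 100 to 300 CPM. It was 61.7% for the 22 members with 300 CPM or more, which include ranks 1 to 7. Ranks 1 to 7, whose counts are not independent of each other, had a median of 83.5%. Ranks 8 to 22 ran from 25.2% to 81.3%, and the band was not summarised without ranks 1 to 7.

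The share of genes that met the fall conditions is given by level at 0 minutes as a description, with no test. At or below 0.5 of the 0 minute level at 60 minutes with separated libraries were 22.5% of the 6455 genes with 1 to 10 CPM at 0 minutes, 12.8% of those with 10 to 30 CPM, 10.3% of those with 30 to 100 CPM, 5.85% of those with 100 to 300 CPM and 5.53% of those with 300 CPM or more. The share fell from the lowest to the middle band under all 4 scalings, and was smaller in both bands from 100 CPM up than in those below. It was 38.2% in the lowest band and 15.1% in the highest with total counts alone. The mirrored rise was a 0/60 ratio of at most 0.5 with both 60 minute libraries above both at 0 minutes. With TMM its share also went down with level: 13.6%, 10.3%, 10.2%, 8.82% and 2.76% from the lowest to the highest band. The decline is thus not particular to falling genes. Counting near-identical genes once, 5.48% of 1333 abundant profiles were members.

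**Figure D5:**
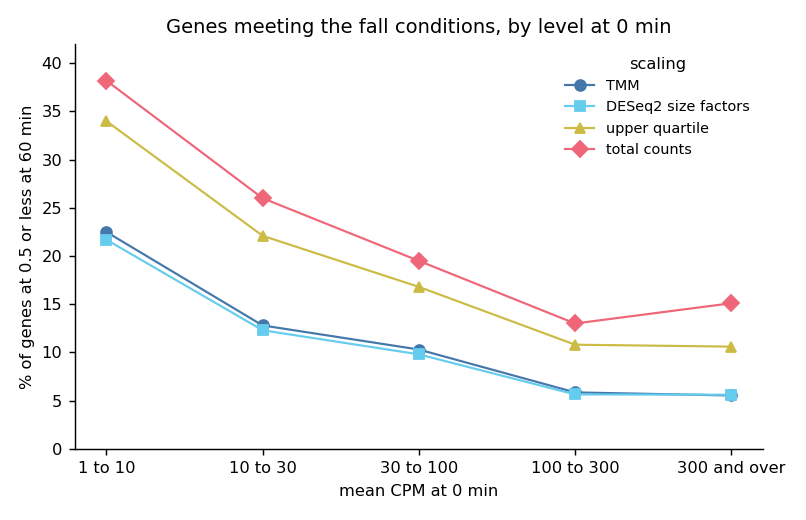
Percent of genes at or below 0.5 of their 0 minute level at 60 minutes, with both 60 minute libraries below both at 0 minutes, in 5 bands of mean CPM at 0 minutes; each line is a scaling of the counts. With each scaling the lowest band has the highest percent, and with TMM the bands from 100 CPM up hold 5.85% and 5.53%.

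Each library at 0 or 60 minutes was in turn held out of the choice of members. Chosen without replicate 1 at 0 minutes, the rule gave 90 genes; in that library all 90 stood above both 60 minute libraries, and for 77 the 60 minute mean was at most 0.5 of the held-out level. Without replicate 2 at 0 minutes the counts were 75 chosen, 75 above and 71 at most 0.5. Choosing without replicate 1 at 60 minutes gave 86 genes, all 86 below both 0 minute libraries in the held-out one and 71 at most 0.5, with a highest ratio of 0.819. Without replicate 2 at 60 minutes the counts were 79, 79 and 71. The median ratio in the held-out library ranged from 0.327 to 0.367 over the 4 choices. Each held-out library was compared with libraries of the other time that the choice had used, and the TMM factors came from all 6 libraries. The choice thus favours the side found. These values are a description, with no test.

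Replicates of the members were close. The median absolute log2 difference between replicates was 0.1 at 0 minutes, 0.08 at 30 minutes and 0.15 at 60 minutes, beside 0.12, 0.08 and 0.22 for the other abundant genes. At 60 minutes 47 members were lower in replicate 2 than in replicate 1, and at 0 minutes 55 were higher in replicate 2. The largest such difference in a member was 0.96, at 60 minutes.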

How the data were processed

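The authors deposited 1 table of whole-number read counts per gene and library. Per the submitters' processing notes the tools were cutadapt, TopHat, HTSeq and DESeq2, with no versions; build, annotation and strand setting: not given in the sources used here. The 5 summary rows were left out; reads in no gene were 1.66% to 2.14% of each library and the other 4 rows were 0.

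The filter on low counts (filterByExpr, minimum count 10 and total 15) left 18949 genes. CPM is the count divided by the library's gene total times its TMM factor (0.793 to 1.18). Tests used edgeR 4.0.16 (R 4.3.3; estimateDisp, glmQLFit, glmQLFTest) on the 3 times and 6 libraries together, with Benjamini-Hochberg adjustment over all genes tested and a threshold of 0.05, and were tested on simulated data. The SE is the log2 fold change divided by the square root of F. DESeq2 1.42.0 was an alternative. The rule for IDs named the member with the most reads and the one with the lowest 60/0 ratio; a further part, for members higher at 30 minutes, found none. Other members were picked for description, and the near-identical groups and level bands added, after values were seen. Members, lists and tests were chosen with earlier results of these data known. Lists of gene descriptions could not be used.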

Additional observations from a re-analysis of the deposited data

Results flagged for a closer look

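Levels at 60 minutes differed from those at 30 minutes in 64 members that were lower and 1 that was higher, by edgeR's quasi-likelihood test. Of all genes tested, 18.5% were called lower and 17.4% higher in this comparison. It shares the 60 minute libraries with the choice of members. Pp3c17_19170 was among the 64, with a log2 fold change of -2.58 between those times.

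Reads in no annotated gene, which enter no comparison above, took a larger share of each treated library than of either 0 minute library (1.671% and 1.662%). The share was 1.987% and 2.036% at 30 minutes and 2.137% and 1.726% at 60 minutes. Whether any of them come from the members' transcripts was not tested.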

How the results depend on the processing

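The number of members rested on the scaling and the limits: 216 with total counts, 169 with upper-quartile factors, 77 with DESeq2 size factors, 226 at 50 CPM or more and 37 at 200 CPM or more. All 79 were among the 216 and the 169. Leaving out a library gave 75 to 90. Requiring a log2 fold change of 1 or more in size as well left 26 of the 71 members called lower at 30 minutes. It left 31 of the 64 called lower from 30 to 60 minutes. The share of all genes was not taken with that condition, so nothing is read from these counts. Without single libraries the numbers of members called in these 2 comparisons moved, as did the share of all genes called lower, so they are not compared. In those fits the log2 fold change at 30 minutes was -1.3 to -1.13 for Pp3c26_6990, beside -1.22 with all 6 libraries. For Pp3c17_19170 it was -1.24 to -1.08, beside -1.16. The members' share of gene counts at 0, 30 and 60 minutes was 10.9%, 6.42% and 4.24% for the 216 genes chosen on total counts. It was 2.31%, 1.16% and 0.568% with 1 ID per near-identical group, an alternative added after seeing the data. Members chosen without a library took 2.93% to 3.26%, 1.42% to 1.59% and 0.721% to 0.832%. The median share of the fall present at 30 minutes was 40.3% with total counts, 48.1% with upper-quartile factors, 56.1% on the linear scale and 40.8% to 43.9% without single libraries.

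Replicate numbers are shared between times, but no label ties a number to a culture or day. Differences between same-numbered replicates correlated across genes at -0.06 (0 and 30 minutes), 0.02 (0 and 60) and 0.26 (30 and 60). With a replicate block, 79 members were called lower at 60 minutes, 74 at 30 minutes and 64 from 30 to 60 minutes. Of all genes tested, 30.9%, 18.9% and 19.8% were called lower in those comparisons. With the block, 5 members rather than 8 had no call at 30 minutes.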

Other observations

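Members were spread unevenly over the ID groups of the tables, which was not tested. They occurred in 23 of the 27 groups whose prefix is Pp3c and in 1 group with the prefix Pp3s. The prefix Pp3c26 held the most, 8 IDs or 6 distinct profiles, among 27 abundant genes. Of these 8 IDs, 5 are the stretch of ranks 1 to 5, which kept its proportions over the libraries. Pp3c1 came next with 6 members among 97 abundant genes. Both abundant genes of Pp3s775 were members, and they form a near-identical group. Of all abundant genes 5.75% were members. Within 10 places of another member in the order of the IDs were 16 members, but 7 when near-identical IDs were counted once. The same count was not taken for other abundant genes. Apart from the near-identical groups and the stretch around rank 1, close pairs were ranks 15 and 16 and ranks 27 and 51. Over the hour the log2 fold changes were -1.66 and -1.35 in the first pair and -1.49 and -1.48 in the second. At 30 minutes ranks 27 and 51 stood at 0.458 and 0.468 of their 0 minute level.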
